A study of Homo sapiens with 6 samples.

Results

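The MYC, MAX and MXD network is represented here by 10 genes chosen by name, MYC, MYCN, MYCL, MAX, MXD1, MXD3, MXD4, MXI1, MNT and MLX. All 10 were found by symbol among the 31142 genes of the deposited table, each under 1 identifier. The RNA-seq data cover 6 libraries labelled as SKM-1, a human acute myeloid leukemia line derived from MDS. They were 3 labelled with S34F mutant U2AF1 (the S34F group) and 3 with wild-type U2AF1 (the WT group), all collected at 96 h. In the study, FLAG-tagged U2AF1 of either form was driven by a ubiquitin promoter in a lentivirus that also carries GFP and puromycin resistance, in cells that keep their own wild-type U2AF1, and the transduced cells were selected as a stable population. The methods also speak of a vehicle control in place of the wild-type form, and the WT samples carry the prefix used for negative controls, so the grouping rests on their titles. The methods speak of triplicate treatment and independent RNA samples, and the labels do not say whether these were separate cultures, so p-values measure the spread between these samples, which may be technical.

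MYC proteins are basic helix-loop-helix leucine zipper factors that bind DNA only as dimers with MAX. The recognized sequence is the E-box, CACGTG, and MYC-MAX dimers raise transcription of genes of ribosome production, metabolism and cell division. MAX also pairs with the MXD proteins and with MNT, which bring the SIN3 corepressor and its histone deacetylases to the same sequence, so that MYC and these antagonists compete for MAX. MLX pairs with MXD1, MXD4, MNT and the glucose-sensing Mondo proteins. In blood cells MYC is abundant in dividing progenitors, and MXD1 is known to rise as myeloid cells mature.

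The sequence shared by all dimers of the network was looked up in the RefSeq promoters of the members. The table, on GRCh38.p14, gives 300 bases a promoter, 250 before and 50 after the start site, and it held 12 promoters of 9 members, without MYC. The E-box CACGTG, which reads the same on both strands, was found in 3 of the 9, MXD4, MNT and MLX, and not within these windows of the other 6. Counted by promoter, it was present in 3 of the 12 and in 7.26% of the 35116 promoters in the table. The stretches around it are shown 5′ to 3′ on the strand of the gene, with the E-box in capitals. They lie at chr4:2262320-2262359 on the minus strand for MXD4, where the E-box starts 238 bases before the start site, at chr17:2401226-2401275 on the minus strand for MNT (193 bases before) and at chr17:42567028-42567077 on the plus strand for MLX (50 bases before).
MXD4: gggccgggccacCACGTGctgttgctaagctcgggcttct
MNT: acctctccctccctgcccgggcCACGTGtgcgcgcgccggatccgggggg
MLX: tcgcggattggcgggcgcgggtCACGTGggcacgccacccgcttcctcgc
A match is a description of these letters and does not show that the site is bound.

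Levels are given as FPKM, mapped fragments scaled to the length of the transcript and to the depth of the library. The depth read from single-exon genes was about 20.5 M to 26.1 M fragments per library, lowest in S34F replicate 1. S34F replicate 3 was the library least like the others, with a mean correlation of 0.961 with the other 5 over the genes tested, against 0.9746 to 0.978 for the rest. U2AF1 had 9.30 ± 0.159 FPKM (SD, n = 3) in S34F and 8.34 ± 0.595 in WT (SD, n = 3), and gene-level values do not separate the introduced from the endogenous transcript or, with certainty, from the near-identical copy U2AF1L5. The labelled cell type was checked with marker lists. Of 11 listed monocytic genes in the table, 6 had a mean under 1 FPKM and MPO, S100A8 and FCN1 were at or under 3 fragments in all 6 libraries, whereas all 12 listed erythroid genes averaged at least 1 FPKM, with a median of 551 FPKM. The erythroid list was led by the globin genes HBE1 and HBG2, with means of 5461 and 2166 FPKM. The means of 3 monocytic genes reached 10 FPKM, CD68 (46.3), LYZ (15.7) and SPI1 (10.6). Those of 9 of the 12 erythroid genes did, among them ALAS2 (339), GATA1 (184.5) and KLF1 (141.7). Most markers of the label were thus low and most erythroid ones high, so the profile disagreed with the label. The identity of the cells was not tested, and they are called here by their label.

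The S34F and WT groups were compared on log2(FPKM + 1) with limma, over the 10942 genes whose mean was at least 1 FPKM. On this scale a fold change understates the change of low genes. A differentially expressed gene (DEG) had a fold change above 1.5 with an unadjusted p under 0.05, the limits of the study. The filter kept 9 members and left out MYCN. Of these 9, 1 was a DEG, MYC, which was lower in S34F. By the same rule 0.585% of all genes tested were DEGs, and 0.375% were DEGs lower in S34F. After Benjamini-Hochberg adjustment 0 members and 0% of all genes had an adjusted p under 0.05 from limma. At an unadjusted p under 0.05 the counts were 1 member and 2.39% of all genes. The S34F and WT values did not overlap for 1 member, again MYC, and for 7.38% of all genes. The other 8 members had overlapping groups. The 9 members had a median log2 fold change of -0.031, and all genes tested had one of 0.015.

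**Figure D1:**
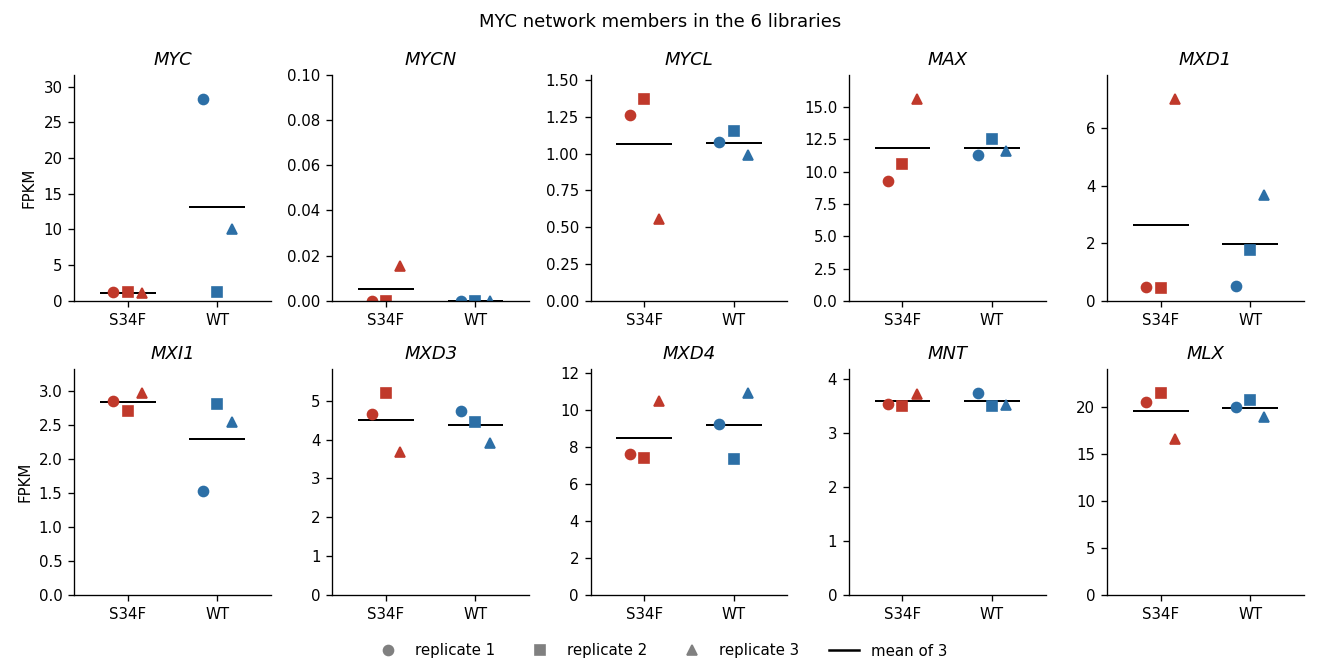
FPKM (linear axis from 0, a scale of its own in each panel) of the 10 members in each library, with circles, squares and triangles for replicates 1, 2 and 3, red for S34F, blue for WT and a line at each group mean. MYC was high in WT replicates 1 and 3 only, MXD1 was highest in S34F replicate 3 and WT replicate 3, and MNT lay between 3.49 and 3.73 FPKM in all 6 libraries.

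MYC (ENSG00000136997, chromosome 8 of GRCh38 from 127735434 to 127741434, plus strand), the founding member of the family, had 1.19, 1.23 and 1.10 FPKM in S34F replicates 1, 2 and 3. In WT replicates 1, 2 and 3 it had 28.3, 1.24 and 10.01 FPKM. The groups thus did not overlap, but WT replicate 2 stood just above S34F replicate 2, and the WT libraries differed among themselves far more than the S34F libraries differed from WT replicate 2. Across the 6 libraries the highest value was 25.6 times the lowest. Its coefficient of variation was 152%, and 99.8% of the genes tested had a lower one. All 6 values were above 0.0619 FPKM, the level of 3 fragments on the longest transcript in the library where it was highest. The ratio of the group means, S34F over WT, was 0.0889. On the log2 scale MYC fell by 2.05 (standard error 0.83, 95% interval -4.02 to -0.073), with an unadjusted p of 0.0440 and an adjusted p of 1.00 from limma. The exact two-sided permutation p was 0.1, the smallest that 3 libraries against 3 can give.

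The MYC call depended on single libraries. Without WT replicate 1 its log2 fold change was -1.20 (limma, unadjusted p 0.0996). Without WT replicate 2 it was -3.05 (limma, unadjusted p 0.000223 and adjusted p 0.810). Leaving out any of the S34F libraries or WT replicate 3 left it between -2.07 and -1.90, with unadjusted p from 0.0791 to 0.125. The call was therefore kept in 1 of the 6 fits that left out a library. With both libraries numbered 3 left out it was -1.88 (limma, unadjusted p 0.229). In bulk RNA, a smaller share of cells with MYC mRNA and less MYC mRNA per cell cannot be told apart.

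The genes around MYC and the genes most like it were examined next. PVT1, the long noncoding RNA gene that lies downstream of MYC, had 4.57, 4.31 and 2.56 FPKM in S34F and 3.82, 3.67 and 4.15 FPKM in WT, with overlapping groups and a log2 fold change of -0.05 (limma p = 0.807, exact permutation p = 1). PVT1 was thus not raised in WT replicate 1, where MYC was highest. CASC11 and POU5F1B, the other listed neighbours in the table, had at most 0.0594 and 0.0471 FPKM in any library.

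Over the 6 libraries, the 5 genes whose log2(FPKM + 1) followed MYC most closely were SNORD3D, PET117, DRAP1, VIM-AS1 and NSUN4, with Pearson r of 0.999, 0.982, 0.956, 0.950 and 0.947. These r are descriptions over 6 points that share depth and processing, chosen as the highest among all genes tested. SNORD3D, a U3 small nucleolar RNA gene, had 0.762, 0.768 and 0.719 FPKM in S34F and 1.73, 0.746 and 1.28 FPKM in WT. SNORD3D exceeded 1 FPKM only in WT replicates 1 and 3, where MYC was high, and passed the filter through them. Its r and p are therefore not read as a result. PET117, which encodes a mitochondrial assembly factor, had 3.82, 3.92 and 3.81 FPKM in S34F and 6.995, 4.17 and 5.15 FPKM in WT. Both therefore shared the order WT replicate 1, WT replicate 3 and then the remaining libraries, over a far narrower range than MYC. The unadjusted p of the 5 genes between the groups ran from 0.0548 to 0.426 in limma. SNORD3D is one of several near-identical U3 copies, so reads could be split among them, and its values are uncertain.

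The paralogs of MYC were low. MYCN (ENSG00000134323, chromosome 2), known from neuroblastoma, was listed at 0 in 5 libraries and at 0.0154 FPKM in S34F replicate 3, under the 0.0563 FPKM that 3 fragments could give. It was at the detection limit in all 6 libraries and was not tested. MYCL (ENSG00000116990, chromosome 1), known from small cell lung cancer, had 1.26, 1.37 and 0.557 FPKM in S34F and 1.08, 1.15 and 0.993 FPKM in WT. S34F replicate 3 was the lowest of the 6 and S34F replicate 2 the highest, so the WT values lay inside the S34F range. The log2 fold change of MYCL was -0.03 (95% interval -0.44 to 0.38, limma p = 0.863, exact permutation p = 1), and it was 0.16 without S34F replicate 3. MYCL was close to the filter, with only 1.89% of the genes tested at a lower mean.

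MAX (ENSG00000125952, chromosome 14), the obligate partner of MYC, had 9.28, 10.55 and 15.6 FPKM in S34F. In WT it had 11.3, 12.5 and 11.6 FPKM. S34F replicates 1 and 2 were the lowest of the 6 and S34F replicate 3 the highest, while the WT libraries lay close together between them. The means were 11.8 ± 3.34 FPKM in S34F and 11.8 ± 0.633 FPKM in WT (SD, n = 3 each). Its log2 fold change was -0.03 (95% interval -0.47 to 0.41, limma p = 0.888, exact permutation p = 1), and without S34F replicate 3 it was -0.23. MAX did not follow MYC across libraries, since WT replicate 1, with the most MYC mRNA, had slightly less MAX mRNA than WT replicate 2, with far less MYC. FNTB and CHURC1-FNTB overlap MAX on the other strand, at 5.20 to 6.90 and 0 to 6.23 FPKM, and whether the library kit kept the strand is not given in the sources used here.

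Among the antagonists MXD1 varied most. MXD1 (ENSG00000059728, chromosome 2) had 0.474, 0.454 and 7.02 FPKM in S34F. In WT it had 0.526, 1.76 and 3.67 FPKM. The libraries numbered 3 were the highest of each group, S34F replicate 3 lay above all WT libraries and S34F replicates 1 and 2 below all of them, so the WT range lay inside the S34F range. The highest value was 15.4 times the lowest, and 99.6% of the genes tested had a lower coefficient of variation. The ratio of means, S34F over WT, was 1.33, whereas the log2 fold change was -0.06 (standard error 0.73, 95% interval -1.79 to 1.66, limma p = 0.932, exact permutation p = 0.8), so the ratio and the log2 value differ in sign. Leaving out S34F replicate 3 gave MXD1 a value of -0.88 on the log2 scale. SNRNP27, which overlaps MXD1 on the same strand, had 12.9 to 19.2 FPKM.

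MXI1 (ENSG00000119950, chromosome 10), also known as MXD2, had 2.85, 2.71 and 2.97 FPKM in S34F and 1.52, 2.81 and 2.55 FPKM in WT. WT replicate 1, the library with the most MYC mRNA, had the least MXI1, and WT replicate 2 lay within the S34F range, so that the groups overlapped. On the log2 scale the difference was 0.24 (95% interval -0.16 to 0.65), with an exact permutation p = 0.2 and a limma p = 0.192. It was the largest change after MYC among the members by size, and without WT replicate 1 it was 0.06. Over the 6 libraries the Pearson r of MXI1 with MYC was -0.906, a description over points that share depth and processing.

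MXD3 and MXD4 differed little between the groups. MXD3 (ENSG00000213347, chromosome 5), the member of the family known for its expression in S phase, had 4.65, 5.20 and 3.69 FPKM in S34F and 4.74, 4.45 and 3.92 FPKM in WT. The replicates numbered 3 were the lowest of each group. Its log2 fold change was 0.03 (95% interval -0.30 to 0.36, limma p = 0.829, exact permutation p = 0.9). RAB24 on the same strand, at 9.85 to 14.1 FPKM, and PRELID1 on the other, at 50.7 to 104 FPKM, overlap MXD3. MXD4 (ENSG00000123933, chromosome 4), the most abundant MXD transcript in every library, had 7.62, 7.42 and 10.49 FPKM in S34F and 9.28, 7.35 and 10.9 FPKM in WT. Here the replicates numbered 3 were the highest of each group. MXD4 had a log2 fold change of -0.10 (95% interval -0.53 to 0.34, limma p = 0.606, exact permutation p = 0.7).

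MNT and MLX were the steadiest members. MNT (ENSG00000070444, chromosome 17), the antagonist that is present in dividing as well as resting cells, had 3.53, 3.49 and 3.71 FPKM in S34F and 3.73, 3.49 and 3.52 FPKM in WT. Its coefficient of variation over the 6 libraries was 3.09%, against a median of 15.4% for all genes tested, and only 0.621% of them had a lower one. MNT had a log2 fold change of -0.00095 (95% interval -0.22 to 0.22, limma p = 0.992, exact permutation p = 1). MLX (ENSG00000108788, chromosome 17), the partner of the Mondo proteins, was the most abundant member, with 20.6, 21.5 and 16.6 FPKM in S34F and 20.03, 20.8 and 19.0 FPKM in WT. S34F replicate 3 was again the lowest. MLX had a log2 fold change of -0.03 (95% interval -0.33 to 0.26, limma p = 0.810, exact permutation p = 0.9). MXD4, MNT and MLX, whose promoters hold the E-box shown above, all had overlapping groups and p of at least 0.606 from limma. MYCL, MAX, MXD1, MXI1 and MXD3, without it in the promoter windows, also had overlapping groups, with limma p of at least 0.192. Only 7.38% of all genes tested had groups without overlap, so this is not read as a result about the E-box.

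**Figure D2:**
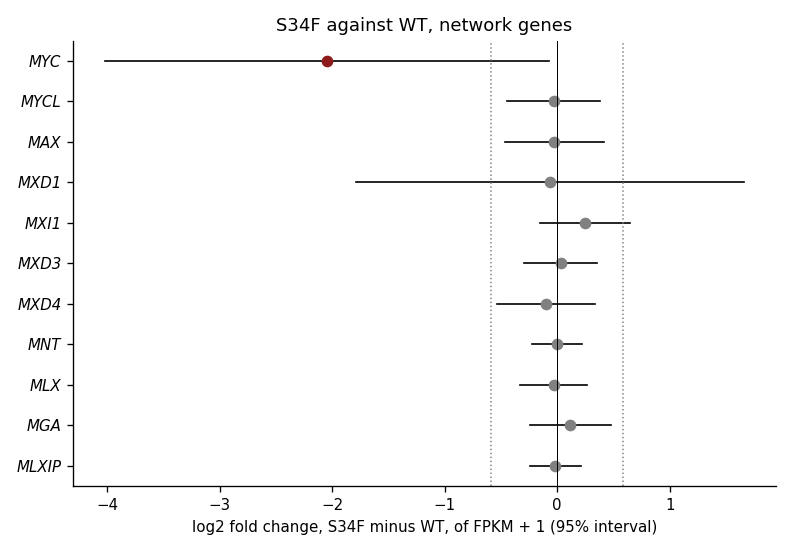
log2 fold change (S34F minus WT, of FPKM + 1) with its 95% interval from limma for the 9 members tested and for MGA and MLXIP, with dotted lines at a 1.5-fold change and the DEG in red. The interval of MYC, from -4.02 to -0.073, was the only one to exclude 0, and MXD1 had the next widest interval.

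By mean level over the 6 libraries the members ranked MLX (19.8 FPKM), MAX (11.8), MXD4 (8.85), MYC (7.17), MXD3 (4.44), MNT (3.58), MXI1 (2.57), MXD1 (2.32), MYCL (1.07) and MYCN (0.00257). FPKM is per length, so these levels can be set side by side. MLX lay above MAX in every library, with ranges of 16.6 to 21.5 and 9.28 to 15.6 FPKM. The ranges of MAX and MXD4 overlapped, those of MXD3 and MNT met between 3.69 and 3.73 FPKM, and MNT lay above MXI1 in all libraries. MYC and MXD1 had ranges that crossed those of several neighbours, so their ranks do not hold library by library.

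The remaining genes of the network were at comparable levels. MGA, a MAX partner that also carries a T-box domain, had 1.47, 1.22 and 2.11 FPKM in S34F and 1.51, 1.47 and 1.16 FPKM in WT, with a log2 fold change of 0.12 (limma p = 0.463, exact permutation p = 0.5). MLXIP, which encodes the MLX partner MondoA, had 9.28, 9.42 and 10.04 FPKM in S34F and 9.62, 9.46 and 10.1 FPKM in WT, with a log2 fold change of -0.02 (limma p = 0.853, exact permutation p = 0.5). S34F replicate 3 was thus the highest library for MGA, and MLXIP was even across all 6. MLXIPL, which encodes ChREBP, had 0.548 to 0.958 FPKM and was not tested.

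The makeup of the MAX partner mRNA was then described within each library, as the percent of the summed FPKM of MYC, MYCN, MYCL, MXD1, MXI1, MXD3, MXD4 and MNT. MYC made up 5.49%, 5.61% and 3.73% of this sum in S34F and 57.5%, 5.59% and 28.1% in WT. The mean share was 4.95% ± 1.05 in S34F and 30.4% ± 26.0 in WT (SD, n = 3 each), a difference of -25.5 percentage points that was smaller than the SD of the WT libraries. MXD1, MXI1, MXD3, MXD4 and MNT together made up 88.7%, 88.1% and 94.3% in S34F and 40.3%, 89.2% and 69.1% in WT. WT replicate 1 was the only library in which MYC mRNA exceeded the sum of these antagonists, with an antagonist sum 0.700 times MYC, and in the 4 libraries with the least MYC this sum was 15.7 to 25.3 times MYC.

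Apart from MYC the sum of the partners was alike in most libraries. Without MYC it was 20.4, 20.6 and 28.4 FPKM in S34F and 20.9, 21.0 and 25.6 FPKM in WT. The replicates numbered 3 were the highest of each group, as they were for MXD1 and MXD4. MAX was 0.430, 0.482 and 0.528 times the sum of all partners in S34F and 0.230, 0.562 and 0.325 times in WT. It was lowest in WT replicate 1, where the sum itself was the highest, at 49.1 FPKM. These are mRNA levels and carry no measure of protein or of dimers.

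**Figure D3:**
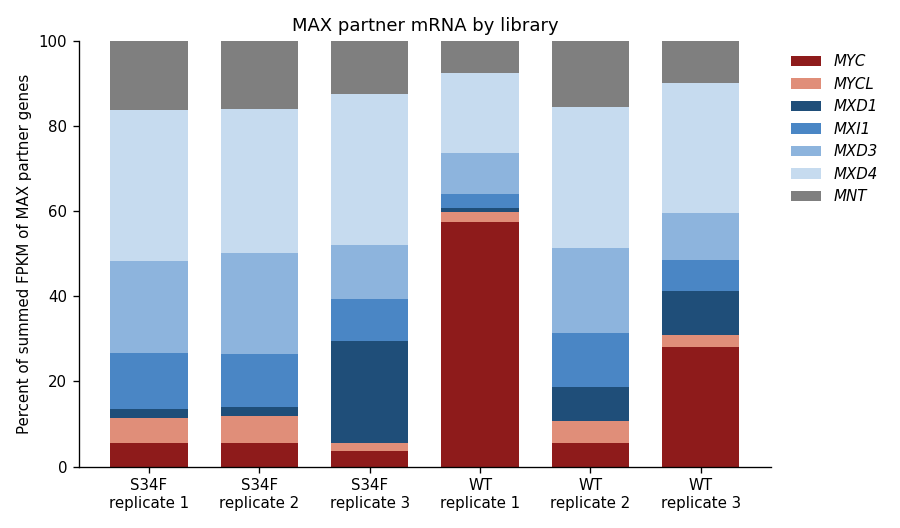
Percent of the summed FPKM of the MAX partner genes taken by each gene in each library, as stacked bars from 0 to 100% (MYCN, at most 0.0523%, is not drawn). MYC took 57.5% in WT replicate 1, 28.1% in WT replicate 3 and 3.73% to 5.61% in the other 4 libraries.

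Some members moved together across libraries irrespective of the group. MYCL and MLX had a Pearson r of 0.987 over the 6 libraries, MXD3 and MLX 0.901, and MAX and MXD1 0.851. MXD1 and MXD3 had an r of -0.951. All 4 are descriptions over 6 points that share depth and processing, and in each of them S34F replicate 3 was the extreme library, lowest for MYCL, MXD3 and MLX and highest for MAX and MXD1.

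Cofactors, corepressors and regulators of MYC protein were taken from lists of textbook genes. Of 15 MYC cofactors, all tested, 0 were DEGs and 0 had an unadjusted p under 0.05 from limma, with a median log2 fold change of 0.0027. The highest level belonged to RUVBL2, an ATPase of chromatin remodeling complexes, at 127.8, 126.6 and 63.5 FPKM in S34F and 108.5, 109.4 and 92.8 FPKM in WT. The next was WDR5, which docks MYC on chromatin, at 30.5 to 38.3 FPKM. S34F replicate 3 was the lowest library for RUVBL2 and for WDR5. Of the 10 genes of the SIN3 complex, through which MXD and MNT repress, 0 were DEGs and 0 had an unadjusted p under 0.05 from limma, with a median of 0.057. HDAC1, the most abundant of these, had 40.2 to 43.6 FPKM in S34F and 43.7 to 49.1 FPKM in WT. These values did not overlap, as for 7.38% of all genes tested, and the log2 fold change was -0.16 (limma p = 0.146, exact permutation p = 0.1). BRMS1, the next most abundant, had 28.3 to 46.3 FPKM in S34F and 27.9 to 38.6 FPKM in WT. Among the cofactors CCNT1 had no overlap either and was higher in S34F (log2 fold change 0.22, limma p = 0.132, exact permutation p = 0.1). Of all genes tested, 0.585% were DEGs and 2.39% had an unadjusted p under 0.05 from limma. With 15 and 10 genes, counts of 0 are thus not read as a result about either list.

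Of 12 genes that act on MYC protein turnover, 10 were tested, 0 were DEGs and 1, PIM1, had an unadjusted p under 0.05, as 2.39% of all genes tested had, with a median of 0.062. With 10 genes, 1 such gene is not read as a result about the list. PIM1, a kinase that stabilizes MYC and is induced by cytokine signaling through STAT5, was the most abundant gene of the list. It had 98.7, 94.9 and 80.4 FPKM in S34F and 136.5, 139.9 and 104.6 FPKM in WT. All S34F libraries lay below all WT libraries, and the 2 replicates numbered 3 were the lowest of their groups. PIM1 fell by 0.47 on the log2 scale (95% interval -0.82 to -0.11, limma p = 0.0167, adjusted p = 1.00, exact permutation p = 0.1), a ratio of means of 0.719. With the replicate number as a block p was 0.00241 in limma, and without WT replicate 1 or WT replicate 2 it was 0.0630 or 0.0641. PIM2, its paralog, had 55.3 to 64.3 FPKM in S34F and 60.0 to 72.2 FPKM in WT, with overlapping groups and a log2 fold change of -0.16 (limma p = 0.203, exact permutation p = 0.3). FBXW7, the ubiquitin ligase subunit that marks MYC for degradation, had a mean under 1 FPKM and was not tested.

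Monocytic genes were read beside these results. Of the 11 in the table, 5 were tested and all 5 had lower means in S34F, their median on the log2 scale being -0.33. In limma 2 of the 5 passed an unadjusted p of 0.05, without overlap between the groups. Of all genes tested, 2.39% passed that p, 7.38% had no overlap and 0% had an adjusted p under 0.05. With 5 genes, 2 such genes are not read as a result about the list. ITGAM had 1.48 to 2.25 FPKM in S34F and 2.35 to 3.43 FPKM in WT (limma p = 0.0148, exact permutation p = 0.1), and CD33 had 1.80 to 2.52 and 2.61 to 3.26 FPKM (limma p = 0.0469, exact permutation p = 0.1). The most abundant, CD68 and LYZ, had overlapping groups, with 32.9 to 46.3 FPKM in S34F and 41.98 to 64.6 FPKM in WT for CD68 (limma p = 0.139, exact permutation p = 0.3) and 8.52 to 23.2 and 17.0 to 18.8 FPKM for LYZ (limma p = 0.185, exact permutation p = 0.4). SPI1 overlapped as well (limma p = 0.342, exact permutation p = 0.5), and CD14 and S100A9, under the filter, had higher means in S34F. The summed level of the 11 ranged from 57.2 to 83.2 FPKM in S34F and from 79.5 to 98.6 FPKM in WT, and their part in the MYC and PIM1 results was not tested. The 12 erythroid genes, with sums of 12133 to 13894 FPKM in S34F and 11740 to 12827 FPKM in WT, held 0 genes with an unadjusted p under 0.05 from limma.

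Listed targets of MYC were set beside the MYC values, and whether they follow MYC was not tested. Of 45 genes known to be raised by MYC, all were tested, 0 were DEGs and 0 had an unadjusted p under 0.05 from limma. The shares over all genes tested were 0.585% and 2.39%, so 0 of these 45 genes is not read as a result about the list. Of them 31 were higher and 14 lower in S34F, and their median was 0.044 on the log2 scale, beside 0.015 for all genes tested. The sign of this median was not stable, as it was -0.019, -0.045 and -0.069 without S34F replicate 1, S34F replicate 2 and WT replicate 3, and -0.025 with upper quartile scaling, which moved the median of all genes to -0.043. Without S34F replicate 3 it was 0.17. By function it was 0.041 for 14 genes of the ribosome and nucleolus, 0.043 for 16 of metabolism, 0.069 for 9 of the cell cycle and 0.12 for 6 of translation and protein folding. Each of these 4 medians was computed over genes of which none was called.

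**Figure D4:**
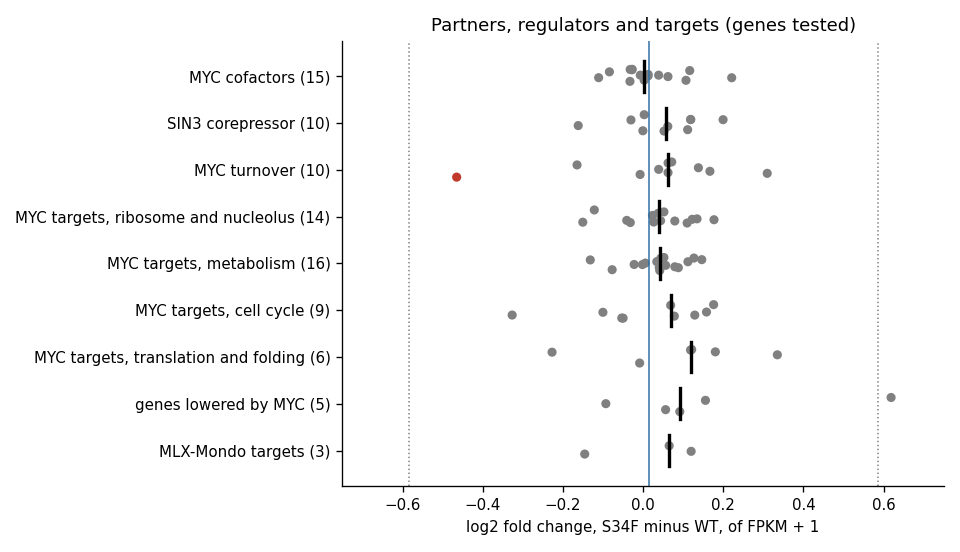
log2 fold change (S34F minus WT, of FPKM + 1) of each tested gene of the 9 lists of cofactors, regulators and targets, 1 point per gene (the cell type markers are not drawn), with a black bar at the list median, a blue line at the median of all genes (0.015) and dotted lines at a 1.5-fold change. PIM1, in red, was the only gene drawn with an unadjusted p under 0.05 from limma.

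The most abundant targets show the same spread. FBL, the methyltransferase of nucleolar ribonucleoproteins, had 334.8, 317.8 and 192.1 FPKM in S34F and 234.2, 299.6 and 265.9 FPKM in WT. ENO1, a glycolytic enzyme, had 765.0, 787.8 and 568.8 FPKM in S34F and 687.4, 690.6 and 664.0 FPKM in WT. ODC1, which starts polyamine synthesis and is a classical MYC target, had 162.0, 168.1 and 112.0 FPKM in S34F and 159.5, 163.4 and 109.0 FPKM in WT. ODC1 was thus at least as high in S34F replicates 1 and 2, with 1.19 and 1.23 FPKM of MYC, as in WT replicate 1, with 28.3 FPKM. NPM1, a nucleolar chaperone, had 192.2 to 239.5 FPKM in S34F and 165.8 to 234.5 FPKM in WT. Among the cell cycle genes, CKS2, a subunit of cyclin-dependent kinases, had 122.7 to 185.6 FPKM in S34F and 127.1 to 139.0 FPKM in WT, and CDK4, the kinase of early G1, had 91.6 to 99.0 and 80.8 to 102.4 FPKM. Of the translation and folding genes, PTMA, which encodes prothymosin alpha, had 213.7 to 263.0 FPKM in S34F and 181.4 to 307.0 FPKM in WT, and HSPE1, the partner of HSPD1, had 69.6 to 89.8 and 73.7 to 132.5 FPKM. The groups overlapped for all 8 of these genes. HSPD1, a mitochondrial chaperone, had 77.9 to 89.2 FPKM in S34F and 71.5 to 77.4 FPKM in WT, without overlap (limma p = 0.117, exact permutation p = 0.1), and it was one of 2 targets of 45 without overlap, with SHMT1, where 7.38% of all genes tested had none.

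Set library by library, the median of the 45 targets, as a difference from the mean of the 6 libraries on the log2 scale, was 0.15, 0.18 and -0.25 in S34F replicates 1, 2 and 3. It was 0.076, 0.098 and -0.25 in the WT replicates. WT replicate 1, with the most MYC mRNA, thus lay below the 3 libraries of replicates 1 and 2 in which MYC was at 1.19 to 1.24 FPKM. Both libraries numbered 3 were the lowest, one with 1.10 and the other with 10.01 FPKM of MYC.

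**Figure D5:**
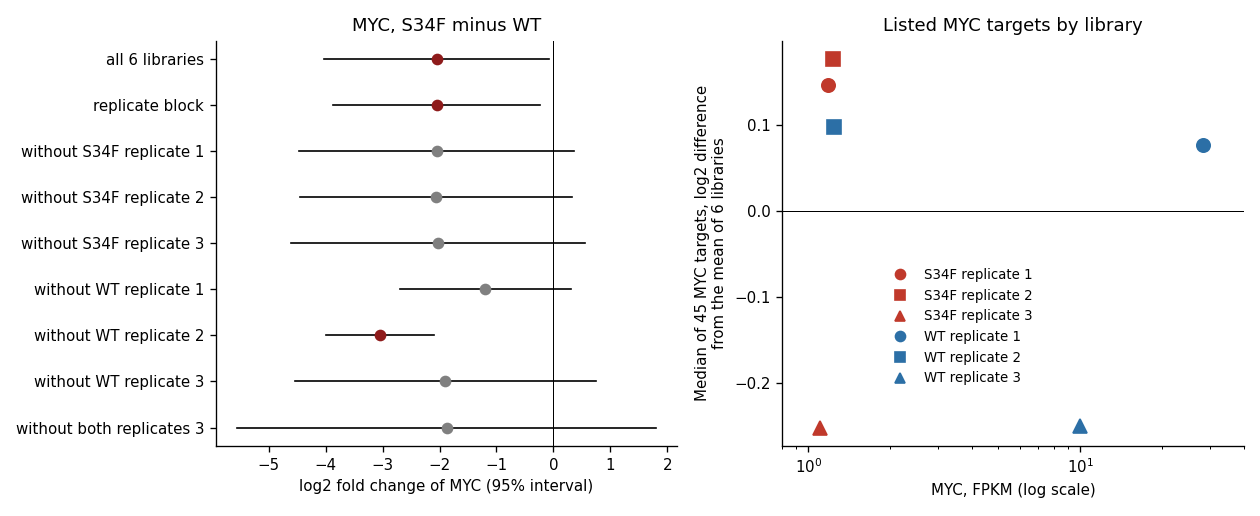
Left, log2 fold change of MYC with its 95% interval from limma with all 6 libraries, with the replicate block and with libraries left out, in red where the unadjusted p was under 0.05; right, MYC in FPKM (log axis) against the median of 45 listed MYC targets in each library. The interval excluded 0 with all libraries, with the block and without WT replicate 2, and the target median was -0.25 in both libraries numbered 3, at 1.10 and 10.01 FPKM of MYC.

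Of 6 genes known to be lowered by MYC, 5 were tested, 4 were higher in S34F and 0 were DEGs or had an unadjusted p under 0.05 from limma, with a median of 0.091. Over all genes tested the shares were 0.585% and 2.39%, so 0 is not read as a result about these 5 genes. GADD45A, a growth arrest gene and the most abundant of them, had 56.0 to 68.5 FPKM in S34F and 54.2 to 70.6 FPKM in WT. CDKN1A, which encodes p21, had 14.9, 13.6 and 28.1 FPKM in S34F and 12.6, 13.8 and 8.32 FPKM in WT (log2 fold change 0.62, limma p = 0.0780, exact permutation p = 0.2). Its groups overlapped, since S34F replicate 2 lay below WT replicate 2. CDKN2B was listed at 0 in 5 libraries.

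The 3 listed targets of the Mondo and MLX dimers were all tested and had a median of 0.065 on the log2 scale, 0 DEGs and 0 genes with an unadjusted p under 0.05 from limma. Since 0.585% and 2.39% of all genes tested met these limits, 0 of 3 is not read as a result about the list. TXNIP, the inhibitor of thioredoxin and glucose uptake that MondoA and MLX induce, had 94.8, 93.1 and 91.3 FPKM in S34F and 100.1, 99.2 and 110.1 FPKM in WT. All S34F libraries lay below all WT libraries, and the log2 fold change was -0.15 (limma p = 0.155, exact permutation p = 0.1). Groups without overlap were also found for 7.38% of all genes tested. PKLR, a pyruvate kinase gene, had 28.2 to 48.3 FPKM in S34F and 31.7 to 40.1 FPKM in WT.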

How the data were processed

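RNA-seq of 6 samples (3 S34F, 3 WT; Illumina X10) was reported in 1 table. The values used are FPKM, made and deposited by the authors; although it is named as a count table, 100% of its values above 0 are not whole. Per the labels, StringTie and edgeR were used, with no versions; the aligner, build and annotation are not given in the sources used here. Fold changes, p-values and q-values of the authors' own comparison were left unused. Each of the 6 FPKM columns was used.

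Groups followed the titles. log2(FPKM + 1), for genes with a mean of at least 1 FPKM, was tested by limma 3.58.1 in R 4.3.3 (empirical Bayes with a mean-variance trend, two-sided, Benjamini-Hochberg adjustment over 10942 genes), without a replicate block. Exact permutation tests over libraries were run for single genes. The script was tested on simulated data. Coordinates and lengths came from GENCODE 29 on GRCh38, which held 31002 of the 31142 identifiers. The value of 1 fragment was read from single-exon genes with 1 transcript. Limits of 3 fragments were set on the longest transcript of each gene and cover counting error only.

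The deviations of same-numbered libraries from their group means correlated at 0.212, 0.174 and 0.380 over genes, for numbers 1, 2 and 3. Differently numbered libraries reached 0.197. All 3 exceeded 0.1 and the study speaks of pairs, so the numbers may mark pairs. The value of 0.197, for S34F replicate 2 with WT replicate 1, lay above the 0.174 of number 2, which leaves the pairing uncertain. The main limma results and the exact permutation tests took no account of pairs. Pairs entered only through the blocked limma fit, which served as an alternative and gave 87 DEGs where the main one gave 64.

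The members and lists were chosen with earlier results of these data known. Named genes are all members and MGA, MLXIP and MLXIPL; of each list, DEGs or genes with an unadjusted p under 0.05 (at most 6) and the 2 with the highest mean; the 5 genes with the highest r with MYC; U2AF1; and cell type markers. POU5F1B, CCNT1, HSPD1, SHMT1, CDKN2B, FBXW7 and genes that overlap members fall outside this rule and were chosen after their values were seen. Figures were drawn with matplotlib 3.10.9 in Python 3.11.15.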

Additional observations from a re-analysis of the deposited data

How the results depend on the processing

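The FPKM carry no counts, and MYCN lay under the level of 3 fragments in all libraries. The 64 DEGs became 122 with a pseudocount of 0.1 and 122 with 0.01, 186 with both libraries numbered 3 left out, and 67 to 180 with 1 library left out (180 without S34F replicate 3); the replicate block, median-ratio, upper quartile and quantile scaling, other filters and other variance settings left the count within 1.5 times. DEGs higher in S34F numbered 23 of 64, 35 of 87 with the replicate block and 15 of 75 with upper quartile scaling. The 1 member called became 0 without a filter and with both libraries numbered 3 left out, and 0 to 1 with 1 library left out. The log2 fold change of MYC was negative in all 17 alternatives, from -3.05 to -1.20. The replicate block changed the call of no member; with it the unadjusted p of MYC was 0.0343 from limma.

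No other member was called under any alternative, and several changed sign. The largest such change was that of MXD1, from -0.06 to 0.34, 0.35 and 0.33 without S34F replicate 1, S34F replicate 2 and WT replicate 3. With quantile normalization MYCL was at 0.012, and with upper quartile scaling MXD3 was at -0.027. With both libraries numbered 3 left out MYCL was at 0.13 and MLX at 0.045, and MXD1 fell under the filter and gave no value. With 1 library left out the log2 fold changes ran from -0.14 to 0.16 for MYCL, -0.23 to 0.12 for MAX, -0.88 to 0.35 for MXD1, -0.059 to 0.14 for MXD3, -0.24 to 0.023 for MXD4, -0.021 to 0.023 for MNT and -0.10 to 0.077 for MLX; the cause was not tested. The difference in the MYC share of partner mRNA was -37.9 to -11.9 percentage points. No member had more than 1 identifier, so identifiers were not summed.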
